A study of Mus musculus with 7 samples.

Results

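Imprinted genes are expressed from 1 parental chromosome, and the loci of 10 of them, *H19*, *Igf2*, *Dlk1*, *Meg3*, *Peg3*, *Mest*, *Igf2r*, *Plagl1*, *Grb10* and *Snrpn*, are described here through the ATAC-seq peaks called in their vicinity. Every peak that touched the GENCODE gene body of a member (mm10) or the 10 kb on either side of it was taken, which gave between 10 and 25 peaks per library out of 27074 to 61241 peaks called. Merged over the libraries, these peaks formed 41 of the 104346 regions in the genome. ATAC-seq marks DNA that the Tn5 transposase can reach, and a peak is a stretch where the caller found more insertions than in its surroundings. The study followed the reprogramming of mouse embryonic fibroblasts (MEFs) into pluripotent cells. MEFs carried the Col1a1tm1(tetO-Pou5f1,-Klf4,-Sox2,-Myc)Hoch allele, which puts *Pou5f1*, *Klf4*, *Sox2* and *Myc* under a doxycycline-responsive promoter, and the Gt(ROSA)26Sortm1(rtTA*M2)Jae allele, which supplies the doxycycline-dependent activator, from a cross of B6;129S4 and B6.Cg strain backgrounds. One MEF library was left untreated (day 0), and doxycycline-treated MEFs (2 µg/ml) gave 1 library each at days 1, 2, 3, 6 and 9. The remaining library came from untreated embryonic stem cells (ESCs) of the line Bruce-4, for which the submitters entered the same genotype as for the MEFs. Cultures on doxycycline are mixtures of cells at different stages, the MEFs came from mid-gestation embryos without head, heart and liver, and ESCs stand for a pluripotent state of another origin than the MEFs.

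In each imprinted cluster, one parental copy of a germline control region keeps the DNA methylation it received in the egg or the sperm, and the unmethylated copy acts as a promoter, an insulator or an activator. ZFP57 is a zinc-finger protein that keeps methylation on the marked copy through the hexamer TGCCGC, and CTCF is the insulator protein bound by the unmethylated *H19* control region. An open control region on 1 chromosome is therefore ordinary in a somatic cell, and peaks called without regard to parental alleles cannot say which copy was open. In bulk libraries, fewer cells with an open site and a less open site in each cell cannot be told apart.

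There was 1 library per time-point, so values are set side by side with no test. The share over all genes or regions stands beside the main counts, and none was computed for the alternative settings. The number of called peaks fell from 61241 on day 0 to 45709, 33174, 48087, 44855 and 33007 on days 1, 2, 3, 6 and 9, and was 27074 in ESCs, although the reads had been downsampled to a common depth. Of 10 fibroblast markers, 8 had a promoter peak on day 0 and 3 in ESCs. *Col1a2* and *Thy1* had one in each MEF-derived library and none in ESCs. Of 10 ESC markers, 4 had a promoter peak in ESCs and 6 on day 0, *Zfp42* had one in ESCs alone, and the promoters of *Nanog*, *Dppa4* and *Sall4* had none in any library, so the ESC label rests here on few promoters. Epithelial markers had a promoter peak at 0 of 5 genes on day 0 and at 1 of 5 in ESCs, where *Cdh1* had it. The haematopoietic and endothelial markers had one at 4 of 5 genes on day 0 and 2 of 5 in ESCs, and the trophoblast markers at 1 of 4 and 0 of 4. Over all genes, 50.8% had a promoter peak on day 0 and 41.9% in ESCs. The part of these differences between libraries in the results below was not tested.

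The 6 stretches of reference sequence (mm10, forward strand) printed here mark the sites on which the results turn. The first 3 come from peaks at control regions with contrasting time courses, and the capitals mark the ZFP57 hexamer on either strand, TGCCGC or GCGGCA. The *Igf2r* stretch (chr17:12741182-12741481) is taken from the peaks of the 6 MEF-derived libraries at the start of the antisense transcript *Airn*, within an intron of *Igf2r*. Its first bases lie before the start of the control region at 12741262, and on day 9 it spans the gap between a pair of peaks. The *Plagl1* stretch (chr10:13090524-13090751) lies inside the peaks of all 7 libraries, at an exonic start of *Plagl1*. The *Mest* stretch (chr6:30737952-30738251) lies inside the peak of day 1, the only library with one at that start, and holds 30 CpG sites in 300 bases.
Airn start in Igf2r: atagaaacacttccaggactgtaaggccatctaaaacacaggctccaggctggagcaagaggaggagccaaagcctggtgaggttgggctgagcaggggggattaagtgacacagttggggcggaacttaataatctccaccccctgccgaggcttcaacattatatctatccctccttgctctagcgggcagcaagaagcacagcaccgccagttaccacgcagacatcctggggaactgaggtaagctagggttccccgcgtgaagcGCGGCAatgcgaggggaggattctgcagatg
Plagl1 control region: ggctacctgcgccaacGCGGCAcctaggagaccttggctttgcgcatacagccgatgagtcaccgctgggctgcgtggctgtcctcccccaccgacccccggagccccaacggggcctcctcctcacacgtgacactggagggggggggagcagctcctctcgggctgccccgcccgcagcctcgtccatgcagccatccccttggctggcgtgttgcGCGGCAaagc
Mest control region: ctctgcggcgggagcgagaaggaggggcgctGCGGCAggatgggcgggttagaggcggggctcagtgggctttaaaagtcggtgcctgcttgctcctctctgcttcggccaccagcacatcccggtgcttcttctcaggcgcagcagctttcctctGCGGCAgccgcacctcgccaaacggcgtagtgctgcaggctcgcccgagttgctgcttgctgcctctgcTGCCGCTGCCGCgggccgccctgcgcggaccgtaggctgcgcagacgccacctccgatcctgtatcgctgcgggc
These stretches hold 1, 2 and 4 hexamers. Among the middle 300 bases of all regions in the genome, 6.85% hold at least 1. The stretches lie wholly or partly in CpG islands, and of whole regions at islands 35% hold at least 1. A match is a description of the letters and not of a bound protein.

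The other 3 stretches show a site open in every library, a start of *Meg3* whose own peak was called on days 0 and 1, and a site that appeared with doxycycline. The *Peg3* stretch (chr7:6727672-6727971) is taken from intron 1, where the 300 bases with the most matches to the YY1 motif GCCATNTT are shown with these in capitals. The *Meg3* stretch (chr12:109540762-109541061) covers the annotated start of this long non-coding RNA, with the ZFP57 hexamer in capitals. The *Plagl1* intron stretch (chr10:13108188-13108469) lies inside the peaks of the 6 libraries other than day 0, with the AP-1 motif TGANTCA in capitals.
Peg3 intron 1: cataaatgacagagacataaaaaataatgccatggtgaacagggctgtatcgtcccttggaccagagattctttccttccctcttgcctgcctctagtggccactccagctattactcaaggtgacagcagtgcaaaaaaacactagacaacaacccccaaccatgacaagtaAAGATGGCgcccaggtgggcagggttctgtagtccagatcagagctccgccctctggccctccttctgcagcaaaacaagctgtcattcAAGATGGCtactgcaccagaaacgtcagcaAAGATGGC
Meg3 promoter: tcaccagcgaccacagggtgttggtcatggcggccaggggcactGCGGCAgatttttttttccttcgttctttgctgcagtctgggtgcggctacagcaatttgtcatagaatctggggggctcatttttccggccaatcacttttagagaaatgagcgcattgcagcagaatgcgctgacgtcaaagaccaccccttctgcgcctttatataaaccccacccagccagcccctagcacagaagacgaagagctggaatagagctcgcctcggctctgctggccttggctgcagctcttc
Plagl1 intron: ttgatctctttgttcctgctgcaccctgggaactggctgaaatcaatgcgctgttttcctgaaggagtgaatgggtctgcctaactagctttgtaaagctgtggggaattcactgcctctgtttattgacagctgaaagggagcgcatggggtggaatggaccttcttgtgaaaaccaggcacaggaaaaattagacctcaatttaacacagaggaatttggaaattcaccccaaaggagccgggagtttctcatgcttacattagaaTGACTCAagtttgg
The motifs of YY1, a zinc-finger regulator known to bind repeated sites in this intron, and of AP-1, the FOS and JUN factors, were chosen after the peaks had been seen. Of the middle 300 bases of all regions, 6.41% and 22.3% hold them. The *Peg3* stretch was picked for its YY1 matches and the middle windows were not, so the 6.41% is no background for it.

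Fewer peaks lay around the imprinted genes in ESCs than in any MEF-derived library. The 10 windows held 25, 25, 14, 23, 23, 18 and 10 peaks from day 0 through day 9 to ESCs. All 10 genes had at least 1 peak in their window on days 0 and 3, 8 on days 1 and 6, 7 on days 2 and 9, and 4 in ESCs. A peak lay in 71.7%, 66.9%, 62.0%, 68.3%, 67.7% and 62.7% of all gene windows on days 0, 1, 2, 3, 6 and 9, and in 59.4% in ESCs. The count of 10 genes on days 0 and 3 stood above these shares, and that of 4 genes in ESCs below. With 10 genes, the counts of 7 and 8 on days 1, 2, 6 and 9 lay near the shares. The windows of the imprinted genes were longer, with a median of 48.6 kb against 34.5 kb over all 27792 protein-coding and lincRNA genes. Per 100 kb of window, the median was 3.61 peaks on day 0 against 3.63 over all genes, 2.1 against 2.06 on day 9, and 0 against 1.52 in ESCs. With all windows of the members pooled, the density was 3.4 on day 0, 1.9 on day 2 and 1.36 in ESCs. A mean over all genes, taken gene by gene, was 4.45, 2.92 and 2.47 in these libraries. Pooled densities and means of single-gene densities are different measures, so no deficit of the members can be read from them. When the widest 27074 peaks were kept in every library, the number called in ESCs, the windows held 10 peaks on day 0, 17, 14, 14, 16 and 14 on days 1, 2, 3, 6 and 9, and 10 in ESCs, so day 0 and ESCs no longer differed while the doxycycline days stayed above both. The 4 genes with a peak in ESCs were *Peg3*, *Igf2r*, *Plagl1* and *Grb10*.

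**Figure D1:**
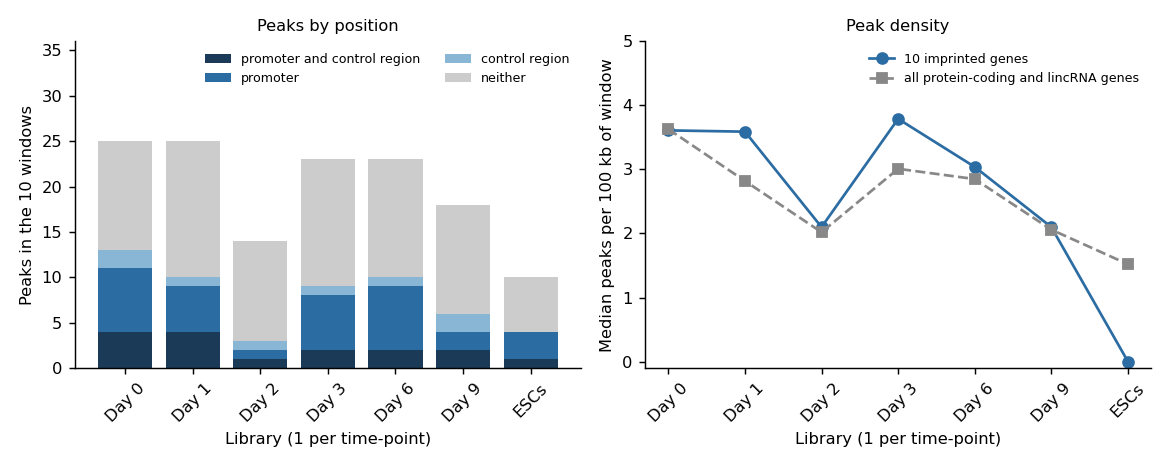
Left, number of called peaks in the windows of the 10 imprinted genes in each library, stacked by position at a promoter, at a control region, at both or at neither. Right, median number of peaks per 100 kb of window for the 10 genes (circles) and all 27792 genes (squares); the 10 genes lie close to all genes on day 0 and at 0 against 1.52 in ESCs.

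At promoters, taken as 1000 bp on each side of any annotated transcript start, the time course was uneven. A promoter peak was present at 8 of the 10 genes on day 0, at 7, 2, 7, 6 and 3 of them on days 1, 2, 3, 6 and 9, and at 2 of them in ESCs. Over all genes the share was 50.8%, 47.0%, 43.2%, 47.8%, 48.4% and 44.8% on days 0, 1, 2, 3, 6 and 9, and 41.9% in ESCs. By this rule the imprinted promoters stood above all genes on days 0, 1 and 3 and below them on day 2 and in ESCs. With 10 genes, the 6 on day 6 and the 3 on day 9 lay near the 48.4% and 44.8% of all genes. The members have up to 11 annotated starts, and at the 5′ end of the gene alone the counts were 4, 3, 0, 2, 1 and 1 on days 0, 1, 2, 3, 6 and 9 and 2 in ESCs, so that ESCs were not the lowest. The shares over all genes count any start, without matching for the number of starts, and were not computed for the 5′ end alone. The libraries of days 2 and 9 hold the fewest peaks of the MEF-derived libraries, and the part of that in their low counts was not tested. A set of 6 genes, *Dlk1*, *Meg3*, *Peg3*, *Mest*, *Grb10* and *Snrpn*, had a promoter peak on day 0 and none in ESCs, a pattern found at 11.6% of all genes. The opposite pattern, found at 2.76% of all genes, occurred at 0 of the 10. Of the 6 genes, *Dlk1*, *Peg3* and *Snrpn* rested on day 0 peaks of 242, 208 and 200 bp. These were absent with peaks of at least 300 bp and with the widest 27074 of each library. *Meg3*, *Mest* and *Grb10* kept the pattern under both settings, for which no share over all genes was computed. With the widest 27074 peaks of a library, 5, 3, 2, 4, 4 and 3 genes had a promoter peak on days 0, 1, 2, 3, 6 and 9, and 2 in ESCs.

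Peaks touched fewer of the 8 germline control regions in ESCs than in any MEF-derived library. A peak touched 6 of them in untreated MEFs, then 5, 2, 4, 3 and 3 of them on days 1, 2, 3, 6 and 9, and 1 of them in ESCs. CpG islands at a transcript start, the nearest class of sequence, had a peak at 63.2%, 59.6%, 55.1%, 60.4%, 61.9% and 57.6% of 17841 islands on days 0, 1, 2, 3, 6 and 9, and at 54.7% in ESCs. Of the 6 control regions with a peak on day 0, 5 had none in ESCs, whereas 19% of the islands with a peak on day 0 had none there. The *H19* and *Dlk1*-*Meg3* control regions, placed at fixed distances, had an observed over expected CpG of 0.48 and 0.42, under the island limit. *H19* was 1 of the 5, so the islands are no matched background for these counts. One control region, that of *Plagl1*, had a peak in all 7 libraries, as did 45.4% of the islands. At 4 control regions, those of *H19*, *Dlk1*-*Meg3*, *Snrpn* and *Peg3*, every peak was between 200 and 253 bp wide, next to the smallest width called (200 bp), and none remained when peaks under 300 bp were set aside. With the widest 27074 peaks of a library, a peak touched 2, 3, 2, 2, 3 and 3 control regions on days 0, 1, 2, 3, 6 and 9 and 1 in ESCs. With the control regions widened by 1 kb the counts were 7, 6, 3, 7, 6 and 5, and 2 in ESCs, so under neither setting did the counts fall steadily after day 1.

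**Figure D2:**
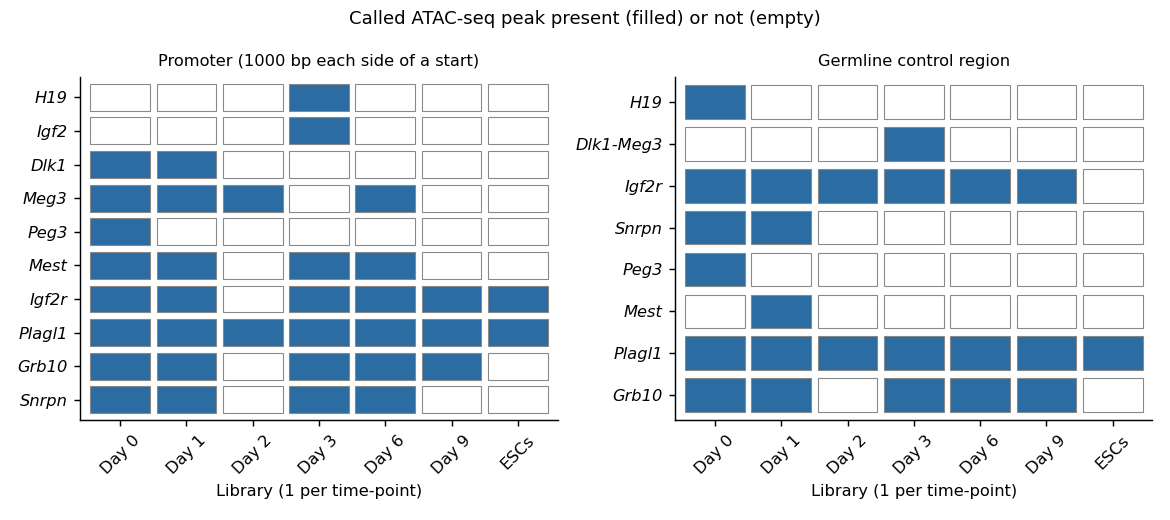
Presence of a called peak (filled) at the promoters of the 10 imprinted genes (left) and at the 8 germline control regions (right) in each of the 7 libraries. In ESCs, 2 promoters and 1 control region are filled, against 8 and 6 on day 0.

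Of the 41 merged regions around the imprinted genes, 19 (46.3%) had a peak on day 0 and not in ESCs, against 44.3% of all regions, a share near the background. A peak in all 7 libraries was found at 3 regions (7.32%), against 9.75%. Another 3 (7.32%) had one in ESCs and not on day 0, against 12.9%, and 14 (34.1%) had peaks on days 1 to 9 only, against 30.7%. The share seen in a single library was 34.1%, against 50.7%. Regions seen in a single library were thus less frequent here than over the genome, with no test of the difference. The 3 regions gained in ESCs are too few to set apart from the 12.9%. With 50 kb flanks, 13 of 83 regions were gained, so a lower share did not hold there.

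*Igf2* encodes a fetal growth factor, and *H19*, its neighbour on chromosome 7, a long non-coding RNA that shares its enhancers and its control region. Neither had a promoter peak outside day 3. On that day a 414 bp peak (chr7:142578040-142578453) lay at the *H19* start, and a 248 bp peak (chr7:142659587-142659834) lay in an intron of *Igf2* and an exon of the antisense transcript *Igf2os*, 2 bp from the start of the latter. The *H19* promoter region holds 5 matches to the KLF motif GGGNGTGG, which 19.7% of all regions hold at least once, and this motif, too, was chosen after the peaks were seen. The *H19* control region, placed 2 to 4 kb upstream of *H19* (chr7:142580143-142582143), had a 200 bp peak on day 0 (chr7:142580503-142580702) and none in the other 6 libraries. It holds 3 matches to the CTCF core CGNGGNGGC and 5 ZFP57 hexamers, of which 2 overlap a CTCF match, and the nearest CTCF match lies 64 bp from the peak. Distal to *Igf2*, a 200 to 206 bp peak on days 0, 3 and 6 lay 3828 bp from the start of *Ins2*, and another, of 215 and 305 bp on days 2 and 6, lay downstream of the gene. No peak was called in either window on day 1, on day 9 or in ESCs.

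*Igf2r*, the receptor that removes IGF2 from the cell surface, held the largest number of peaks of the 10 genes when summed over the libraries. Its window had 8, 6, 3, 6, 7 and 6 peaks on days 0, 1, 2, 3, 6 and 9, and 3 in ESCs. At its own promoter (chr17:12769265-12770116, 26 bp from the start) the peaks summed to 587, 248, 400, 534 and 497 bp on days 0, 1, 3, 6 and 9 and to 594 bp in ESCs, with none on day 2. This promoter, open in ESCs as on day 0, holds 4 CTCF core matches. The control region is the CpG island in which *Airn*, the antisense RNA that silences *Igf2r* in cis, starts within the *Igf2r* gene (chr17:12741262-12742677). Its peaks measured 542, 443, 462, 512, 494 and 477 bp in sum on days 0, 1, 2, 3, 6 and 9, a narrow range, and covered 266 to 385 bp of the island. On day 9 they were split in 2, of 200 and 277 bp. In ESCs no peak was called there, and the nearest one lay 12474 bp away. These neighbouring promoters therefore differed in ESCs, with a peak at *Igf2r* and none at *Airn*.

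Introns of *Igf2r* upstream of the *Airn* start carried most of the remaining peaks. A region in an intron (chr17:12717856-12718619) had none on day 0, 393, 235, 603, 673 and 450 bp of peak on days 1, 2, 3, 6 and 9, and none in ESCs. It was thus present on each doxycycline day and absent at both ends of the time course. A pair of neighbouring intronic regions behaved otherwise. The first (chr17:12724285-12725000) had peaks of 716, 646, 586, 499 and 200 bp on days 0, 1, 2, 3 and 6, each shorter than the one before, and none on day 9 or in ESCs. The second (chr17:12725094-12725830) had 526, 716, 416, 736 and 225 bp on days 0, 1, 3, 6 and 9, and none on day 2 or in ESCs. Nearer to the 3′ end, a region of 5 MEF-derived libraries (chr17:12692066-12692643) had peaks of 417 bp on day 1 and of 200 bp on days 0, 3, 6 and 9. A peak of 279 bp on day 0 and 210 bp in ESCs (chr17:12755113-12755391) was missing on all doxycycline days.

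**Figure D3:**
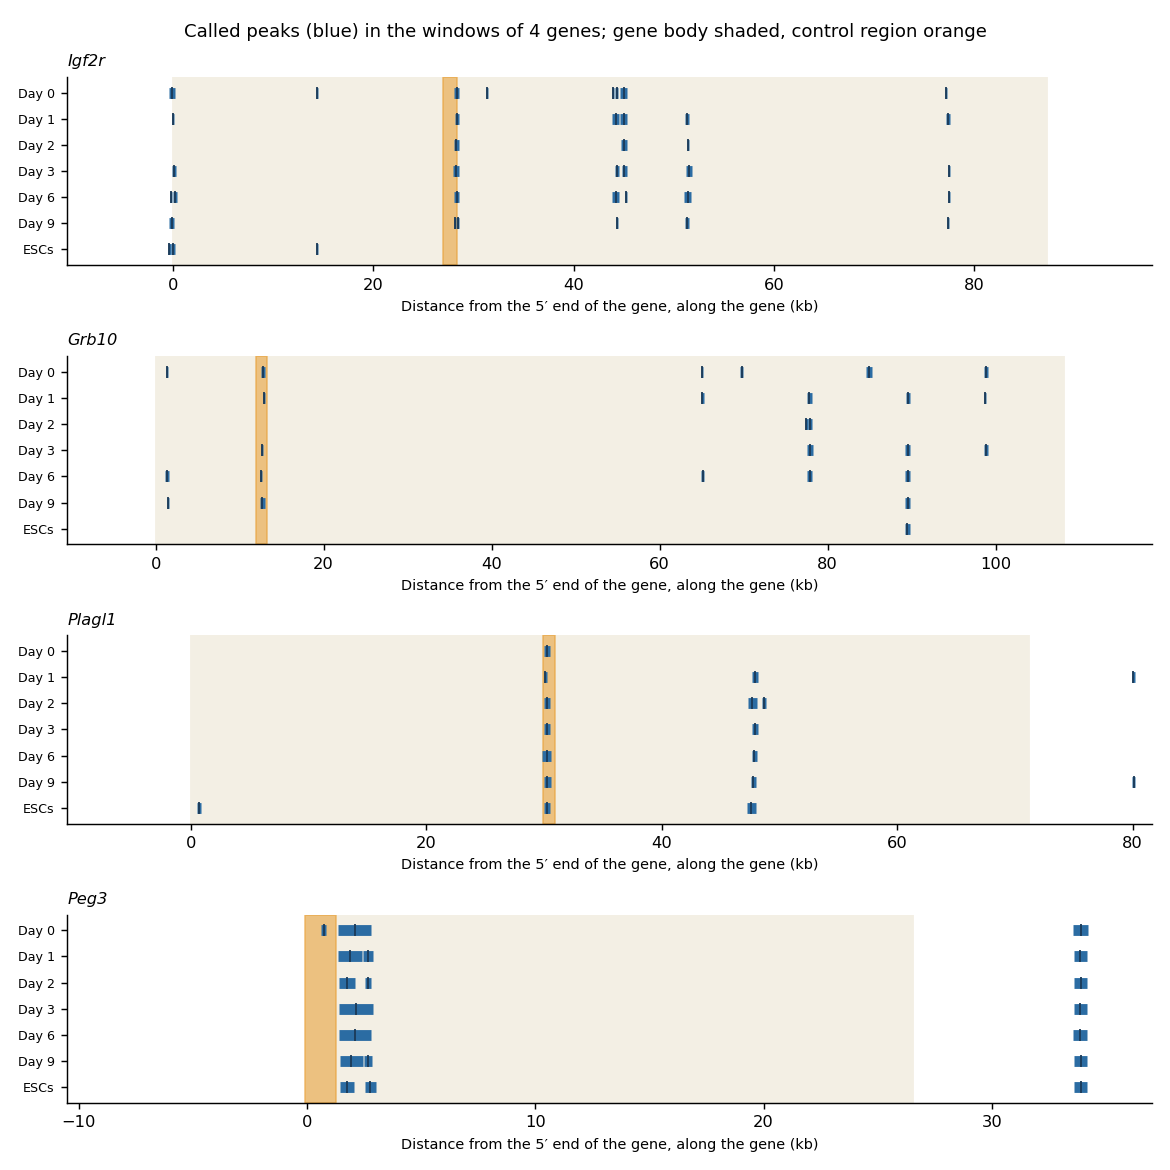
Position of each called peak (blue bars, dark tick at the middle) in the windows of *Igf2r*, *Grb10*, *Plagl1* and *Peg3*, in kb from the 5′ end of the gene, with 1 row per library, the gene body shaded and the control region in orange. The *Plagl1* control region holds a peak in every row, that of *Igf2r* in every row but ESCs, and in *Peg3* the constant peaks of intron 1 lie beside the control region.

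*Plagl1* encodes a zinc-finger transcription factor that restrains growth and regulates other imprinted genes. Its control region (chr10:13090378-13091403) was the sole one with a peak in every library, of 560, 293, 494, 547, 733 and 531 bp on days 0, 1, 2, 3, 6 and 9 and of 505 bp in ESCs. The lowest value, on day 1, was followed by higher ones on all later days, and ESCs fell within the range of the MEF-derived libraries. A peak at the promoter in all 7 libraries is common, being found at 9707 genes (34.9%). A region in an intron of the gene (chr10:13107781-13108692, 5229 bp from the nearest start) had none on day 0, 499, 709, 505, 392 and 377 bp on days 1, 2, 3, 6 and 9, and 691 bp in ESCs. It was 1 of the 3 regions that had a peak in ESCs and not on day 0, and it holds 1 AP-1 motif, as shown above. The merged region at the control region, with a peak in every library, also holds 1 AP-1 motif. At the upstream 5′ start of the gene a 345 bp peak (chr10:13060994-13061338) was called in ESCs alone.

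*Peg3*, another zinc-finger gene, showed a constant site beside its control region. In intron 1 (chr7:6727429-6729090) the peaks summed to 1477, 1452, 998, 1471, 1397 and 1335 bp on days 0, 1, 2, 3, 6 and 9 and to 1064 bp in ESCs, the widest site of the 41. In 4 libraries, days 1, 2 and 9 and ESCs, this length was split into 2 peaks. The merged region holds 8 YY1 matches, against at least 1 in 8.76% of all regions, and the printed stretch with 3 of them was covered for 70.3% to 100% by the peaks of each library. The merged region is 1662 bp long, and the 8.76% is not matched for length. The CpG island at the start itself (chr7:6729141-6730537) had a 208 bp peak on day 0 and none later. In the other 6 libraries the nearest peak, that of intron 1, ended 85 to 175 bp from the island, so the state of this control region rests on where the limit of the island is drawn. The promoter of *Usp29*, which starts within the same window, also counted a peak on day 0 alone. The 208 bp peak is the only one in this window called on day 0 alone, so this need not be a separate observation. A second constant site in the window (chr7:6696222-6696863, 554 to 642 bp in the 7 libraries) lay 92 bp from the start of the neighbouring imprinted gene *Zim1*.

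**Figure D4:**
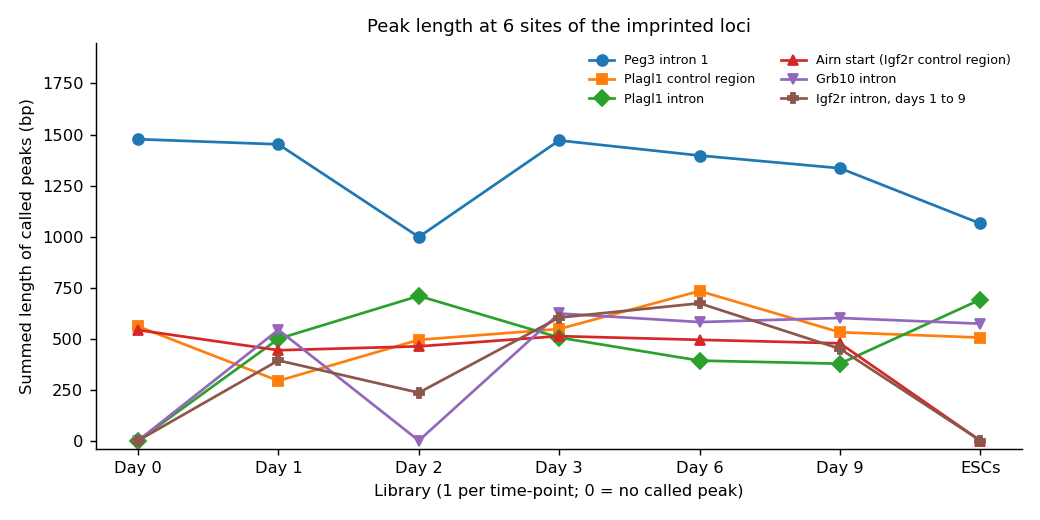
Summed length of called peaks (bp) at 6 sites of the imprinted loci in each library, with 0 where no peak was called. Intron 1 of *Peg3* stays between 998 and 1477 bp, the *Airn* start falls to 0 in ESCs, and the *Plagl1* intron rises from 0 on day 0 to 691 bp in ESCs.

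*Grb10*, an adaptor that restrains insulin and IGF receptor signalling, changed its set of intronic peaks between libraries. The control region, the second CpG island of the gene (chr11:12025411-12026723), had peaks of 442, 200, 200, 286 and 553 bp on days 0, 1, 3, 6 and 9, and none on day 2 or in ESCs. The peaks of days 1 and 6 did not touch each other, so the presence on successive days does not mark the same bases. With an equal number of the widest peaks kept in every library, the control region had a peak on days 6 and 9 alone. It holds 4 ZFP57 hexamers and 1 CTCF core. At the 5′ promoter (chr11:12037055-12037537) peaks of 255, 463 and 284 bp were called on days 0, 6 and 9. Within the gene, 2 intronic regions had a peak on day 0 alone, of 658 bp (chr11:11953401-11954058) and 285 bp (chr11:11968784-11969068). Conversely, the region chr11:11948821-11949471 had none on day 0, 543, 623, 581 and 601 bp on days 1, 3, 6 and 9, and 573 bp in ESCs. It was the one peak of the gene in ESCs. The region chr11:11960373-11961351 had 595, 727, 765 and 594 bp on days 1, 2, 3 and 6 and none on day 0, day 9 or in ESCs. It holds 3 AP-1 motifs and 1 match to the octamer ATGCAAAT, the element read by OCT4 and also chosen after the peaks were seen, which 3.81% of all regions hold. The region is 979 bp long, and the 3.81% is not matched for length. Both of these intronic regions were absent from MEFs, and they differed in ESCs.

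*Dlk1*, a transmembrane ligand-like regulator of differentiation, and *Meg3*, a long non-coding RNA, form a pair on chromosome 12 with expression from opposite parental copies. The *Dlk1* promoter (chr12:109453060-109453483) had peaks of 242 and 250 bp on days 0 and 1, and none afterwards. The peak at the 5′ start of *Meg3* (chr12:109540651-109541171, 90 bp from the start) had 521 and 206 bp in the same 2 libraries, and none afterwards. A further site in an exon of *Meg3* (chr12:109542792-109543418), which counts as a promoter peak because it lies within 1000 bp of another annotated start of the gene, had 302, 367, 384 and 200 bp on days 0, 1, 2 and 6 and holds 2 YY1 matches. The peaks at the *Dlk1* promoter and the 5′ start of *Meg3* were thus called on days 0 and 1 alone, while *Meg3* had a promoter peak by the wider rule on days 2 and 6 as well. The intergenic control region, placed 10 to 16 kb upstream of *Meg3* (chr12:109525001-109531001) and outside the window of the gene, had 2 peaks on day 3, of 200 bp and 253 bp, and none in the other libraries. It holds 10 ZFP57 hexamers and 0 CTCF cores. In ESCs no peak was called in the windows of either gene or in this control region.

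*Mest*, which encodes a protein of the hydrolase fold, had its peaks next to the imprinted start and rarely on it. The CpG island at that start (chr6:30737592-30738564), with 10 ZFP57 hexamers the densest of the 8 control regions, had a 435 bp peak on day 1 and none in any other library. A region in an intron just upstream (chr6:30736792-30737387) had peaks of 491, 427, 200, 422 and 200 bp on days 0, 1, 3, 6 and 9. Outside day 1, the nearest peak to the island on days 0, 3, 6 and 9 was 205 to 601 bp away. A region in an intron downstream (chr6:30745488-30746117) had 585, 479, 497 and 289 bp on days 1, 2, 3 and 6, and none on day 0, day 9 or in ESCs. The nearest peak to the island in ESCs was 93627 bp away.

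*Snrpn* encodes a protein of the spliceosome, and its start lies in the control region of the Prader-Willi and Angelman cluster. A peak touched that CpG island (chr7:60004661-60005332) on day 0 by 15 bp and on day 1 with its whole 249 bp. On days 3 and 6 a peak lay 310 and 77 bp from the island, and none was called in the *Snrpn* window on day 2 or in ESCs. The region of days 0, 3 and 6 (chr7:60004152-60004675, 200 to 314 bp) holds 5 ZFP57 hexamers and 6 KLF motifs. Single peaks of 262 and 237 bp on days 3 and 9 made up the rest of its long window.

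Some motifs recurred among the 41 merged regions, in whose choice they had played no part. A ZFP57 hexamer lay in 13 of the 41 regions (31.7%), against 10.3% of all regions on the main chromosomes. Counting those at CpG islands alone, it lay in 11 of 18 regions (61.1%), against 35% of 21059. The CTCF core lay in 4 of the 41 (9.76%), against 7.06%, and at islands in 4 of 18 (22.2%), against 29.2%. AP-1 motifs lay in 10 of the 41 (24.4%), against 23.6%, a share near the background. KLF motifs lay in 12 of the 41 (29.3%), against 19.7%, and at islands in 6 of 18 (33.3%), against 32%. The YY1 motif lay in 4 of the 41 (9.76%), against 8.76%, and the octamer in 2 (4.88%), against 3.81%. Every one of the 8 control regions held at least 4 ZFP57 hexamers, whatever the number of libraries in which it had a peak. These control regions are 672 to 6001 bp long, and most were placed as CpG islands. No count over other sequence of such length and CpG content was made, so this number has no background.

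The 45 other imprinted genes examined showed a milder course at their promoters. A promoter peak was present at 25 of them (55.6%) on day 0, against 50.8% of all genes. On days 1, 2, 3, 6 and 9 it was present at 24, 22, 26, 25 and 22. In ESCs it was present at 18 (40%), close to the 41.9% of all genes. A group of 9 of the 45 had one on day 0 and not in ESCs, against 11.6% of all genes, among them *Peg10*, *Sgce*, *Asb4*, *Airn*, *Peg13* and *Usp29*. As *Airn* and *Usp29* start within the windows of *Igf2r* and *Peg3*, the 45 genes are not wholly separate from the 10. *Zdbf2* and *Gpr1*, neighbours in one imprinted cluster, were the 2 with the opposite pattern, *Zdbf2* with a peak in ESCs alone and *Gpr1* from day 1 onwards. Of 8 genes that keep or read imprints, 7 had a promoter peak in every library, as did 34.9% of all genes. The remaining one, *Dppa3*, which protects imprints in the early embryo, had it on day 0 alone.

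**Figure D5:**
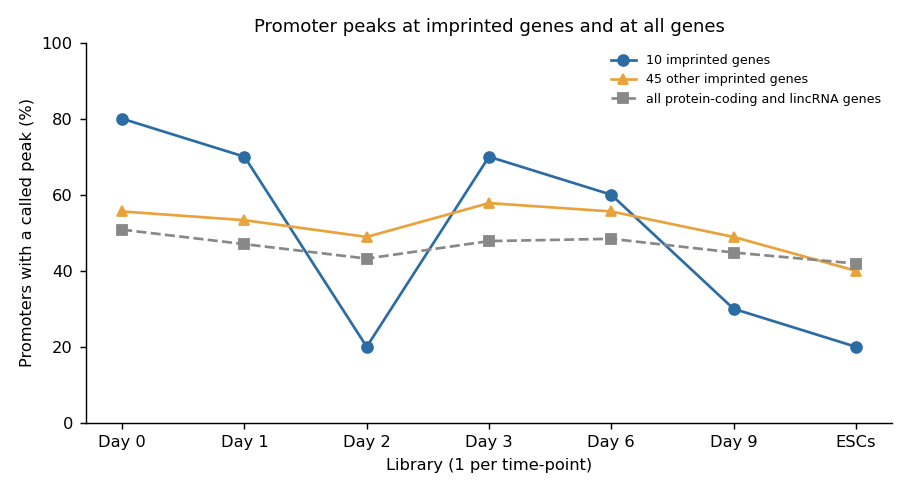
Share of promoters with a called peak (%) in each library for the 10 imprinted genes (circles), 45 other imprinted genes (triangles) and all 27792 genes (squares). The 10 genes go from 8 of 10 on day 0 to 2 of 10 in ESCs, and the other imprinted genes stay between 40% and 57.8%.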

How the data were processed

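Paired-end ATAC-seq reads of 7 libraries had been trimmed by the authors with Trimmomatic, mapped to mm10 with Bowtie2, freed of duplicates with Picard and downsampled to a common depth, which is not given in the sources used here. Peaks had been called in each library with MACS2. The deposited peak lists give chromosome, start and end alone, without score, signal or q-value, so the depth behind a peak is unknown and no interval can be attached to its absence. Positions count from 1.

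Gene bodies and starts were taken from GENCODE M21. Overlaps were counted from 1 bp, and touching or overlapping peaks of all libraries were merged. CpG islands (50% GC, observed over expected CpG of 0.6, at least 300 bp) and motifs on both strands were read from the RefSeq copy of the mm10 (GRCm38) sequence. Control regions were placed by rule: at the island of the most used start, at the *Airn* start, at the second *Grb10* island, or at fixed distances upstream of *H19* and *Meg3*. At *Snrpn* the starts tied and the island decided. Python 3.11.15 and numpy 2.4.6 were used. The overlap code was tested on simulated data and checked against BEDTools 2.31.1. Members, gene lists and rules were chosen with earlier results of these data known. All 10 members were named, and at most 8 other imprinted genes that differed between day 0 and ESCs, in list order.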

Additional observations from a re-analysis of the deposited data

How the results depend on the processing

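Of 114 values recomputed under the alternatives, 69 stayed within 1.5 times of the reported value. With peaks of at least 300 bp, the windows held 13, 15, 14, 14 and 9 peaks on days 0, 1, 3, 6 and 9, promoter peaks fell to 5, 2 and 4 genes and control regions with a peak to 3, 2 and 2 on days 0, 1 and 3, and 27 merged regions were left, 9 of them with a peak on day 0 and not in ESCs. When each library kept its widest 27074, the windows held 10 and 14 peaks on days 0 and 3, promoter peaks were at 5, 3 and 4 genes and control regions at 2, 3 and 2 on days 0, 1 and 3, and 6 merged regions had a peak on day 0 and not in ESCs. The day 0 excess over ESCs in window peaks (25 against 10) was thus absent at an equal number of peaks, and the cause was not tested.

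With 50 kb flanks the windows held 42, 42, 28, 46, 42, 32 and 22 peaks in 83 merged regions, with 36 on day 0 and not in ESCs, 13 the reverse and 29 on days 1 to 9 only. Promoters of 500 bp gave 1 gene on day 2 and 3 on day 6, and the 5′ end of the gene alone gave 4, 3, 0, 2, 1 and 1 on days 0, 1, 2, 3, 6 and 9 and 2 in ESCs. Control regions widened by 1 kb had a peak at 7, 6, 3, 7, 6 and 5 on days 0, 1, 2, 3, 6 and 9 and at 2 in ESCs. The gene body alone, a 50% overlap, merging across gaps and leaving out days 2 and 9 moved none. No paired analysis was possible because no group holds a second library. Without read depth, a peak that is absent may be one that missed the caller's threshold.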
